A study of Homo sapiens with 6 samples.

Results

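The mismatch repair genes MSH3, MSH6, PMS2, PMS1 and MLH3 were followed in PANC-1, a human cell line established from a pancreatic ductal adenocarcinoma, after silencing of METTL16, an RNA m6A methyltransferase. They were taken by symbol from the deposited table, which gave 5 of 58735 genes, and all 5 were among the 15089 genes with enough counts to be tested. Control cells received control siRNA (si-NC, 3 samples), although another label of these samples calls them WT. The other 3 samples received siRNA against METTL16 (si-METTL16). All cells were grown in the same serum-supplemented medium, the methods describe both groups as stably transfected biological triplicates, and the transfected siRNA is not named in the sources used here. The labels and the sequencing methods speak of siRNA, whereas another section of the methods describes short hairpin RNA for silencing in PANC-1, so the reagent is not certain. RNA-seq was performed on total RNA of each sample, so that a change in the RNA of all cells and a change in the share of cells that express a gene cannot be told apart.

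Mismatch repair removes bases that the replication machinery has paired wrongly, together with small loops left by slippage on repeats. A MutS complex recognises the error. MSH6 is the subunit for single mismatches and short loops, and MSH3 the subunit for larger loops. A MutL complex is then recruited, and its identity depends on which of PMS2, PMS1 or MLH3 is bound. PMS2 supplies the endonuclease that nicks the new strand, MLH3 supplies a related nuclease best known from meiotic crossing over, and PMS1 forms a complex whose task in repair is less clear. The nicked strand is degraded by the exonuclease EXO1 and rebuilt by the sliding clamp PCNA, its RFC loader, the RPA single-strand binder and DNA polymerase delta.

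The samples held between 15725298 and 18054436 counts, at which 3 counts correspond to between 0.166 and 0.191 CPM (counts scaled to a common total, by TMM unless stated). METTL16 stood at 91.5, 96.7 and 101 CPM in the control samples and at 34.8, 33.9 and 34.9 CPM in the silenced ones. The silenced samples thus kept 35.9% of the control level (edgeR quasi-likelihood test with Benjamini-Hochberg adjustment, log2 fold change -1.48, SE 0.07, adjusted p = 8.34e-05). The summed CPM, scaled by total count, of 5 ductal epithelial markers lay between 2853 and 3932 in the controls and between 3055 and 3374 in the silenced samples, most of it KRT8 and KRT18. Of this list KRT19 and KRT7 fell, with log2 fold changes of -1.40 and -0.84 (edgeR adjusted p = 0.00111 and 0.0117). Acinar, endocrine and endothelial lists summed to less than 1 CPM in every sample, with CPA1, AMY2A and GCG at 0 in all 6. The fibroblast list summed to between 333 and 385 CPM in the controls and between 804 and 852 CPM in the silenced samples, nearly all of it COL1A1, with DCN at 0.115 CPM or less and LUM at 0.443 CPM or less. The leukocyte list summed to between 5.83 and 6.04 CPM in the controls and between 7.87 and 9.31 CPM in the silenced samples, nearly all of it CD68, with CD3E at 0 in all samples. The part of these markers in the results below was not tested.

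Of the 5 genes, PMS2 fell and the other 4 did not pass the test. Among all tested genes 35.9% were called, 18.4% higher and 17.5% lower in the silenced cells, so that 1 call among 5 genes is no more than the background. The RNA of the MutS subunits MSH3 and MSH6 and of the MutL subunit PMS1 stood between 105% and 110.1% of the control level. MLH3 stood at 213% of control, a value that rested on 1 silenced sample.

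**Figure D1:**
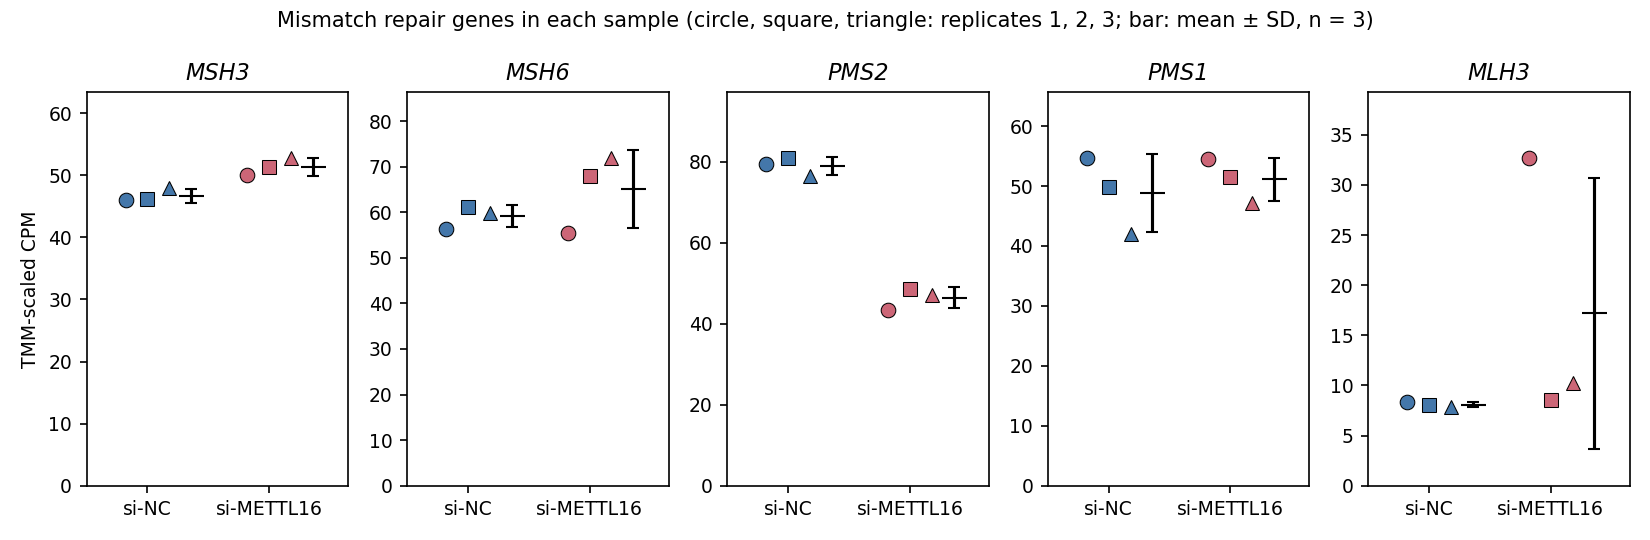
TMM-scaled CPM (vertical axes, each from 0) of the 5 mismatch repair genes in the si-NC (blue) and si-METTL16 (red) samples; circles, squares and triangles are replicates 1, 2 and 3, and the bars give the mean ± SD (n = 3). The 3 silenced samples lie far below the controls for PMS2 (43.5 to 48.5 against 76.5 to 81.0 CPM), and a single silenced sample lifts the MLH3 mean (32.7 CPM against 8.59 and 10.2 CPM).

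PMS2 (ENSG00000122512) lies on the minus strand of chromosome 7, and the deposited table places it from 5973239 to 6009125 on GRCh38. Its MANE Select transcript in GENCODE v44 has 15 exons. PMS2 had 1342, 1374 and 1341 counts in si-NC and 713, 757 and 846 counts in si-METTL16 replicates 1, 2 and 3. The highest silenced sample was far below the lowest control, and the groups did not overlap, as was the case in one or the other direction for 50.9% of all tested genes. On the CPM scale the mean went from 79.0 ± 2.27 to 46.4 ± 2.62 (SD, n = 3 per group). This was 58.7% of the control level, with a 95% interval from 52.2% to 66.0% (edgeR log2 fold change -0.77, SE 0.07, adjusted p = 0.000393). The gene stood at rank 442 of the 15089 genes by p. With each sample left out in turn, its log2 fold change stayed between -0.80 and -0.73, and every adjusted p was 0.0026 or lower.

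PMS2 is part of a head-to-head gene pair, and the promoter is shown because both genes of the pair were measured. AIMP2, which encodes a scaffold protein of the tRNA synthetase complex, starts 120 bases away on the other strand, and the genes share no bases. The RefSeq window (GRCh38.p14, chr7:6009000-6009299, minus strand, 250 bases before to 50 after the annotated start) is printed 5′ to 3′, with matches to 4 motifs in capitals. The motifs, searched on both strands, were the CCAAT box (CCAAT), the GC box (GGGCGG), the cAMP response core (TGACGTCA) and an E2F-like site (TTTNNCGC).
PMS2 promoter: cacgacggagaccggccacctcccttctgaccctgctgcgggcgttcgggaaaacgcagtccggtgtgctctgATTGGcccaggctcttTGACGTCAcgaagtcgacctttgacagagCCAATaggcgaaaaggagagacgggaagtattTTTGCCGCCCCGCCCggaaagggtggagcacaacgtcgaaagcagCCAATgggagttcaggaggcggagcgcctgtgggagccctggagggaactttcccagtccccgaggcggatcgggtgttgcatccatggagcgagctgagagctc
The window held 3 CCAAT boxes, 2 overlapping GC boxes, 1 E2F-like match that overlaps a GC box, and 1 cAMP response core. It is placed on the start of the MANE Select transcript, and a second, overlapping RefSeq window of PMS2 held the same number of each motif. Among 35116 RefSeq promoter windows of this length, 34.6% held a CCAAT box, 45.0% a GC box, 6.89% an E2F-like match and 1.85% a cAMP response core. The same stretch, read on the other strand, forms most of the first of 2 RefSeq windows of AIMP2. The second (chr7:6009315-6009614) shares no base with the printed window, and held 2 GC boxes and none of the other motifs. AIMP2 had 947, 1051 and 880 counts in si-NC and 802, 1043 and 1109 counts in si-METTL16 replicates 1, 2 and 3. Its groups overlapped (edgeR log2 fold change 0.08, 95% interval -0.24 to 0.39, adjusted p = 0.684), an interval that lies wholly above that of PMS2 (-0.94 to -0.60). The difference between both genes was not itself tested.

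PMS2 has many partial copies on chromosome 7, and reads that match several copies can be assigned to any of them. Of the 2779 bases of the MANE Select transcript inside the deposited locus, 2730 windows of 50 bases were searched in the copies. PMS2CL, the largest copy by counts, held 23.7% of the windows without a mismatch, and all 11 named copies together held 25.7%. The windows came from the spliced transcript and were searched in the unspliced genomic span of each copy. Windows across exon junctions could therefore hardly match, so these shares, and those by exon, are lower bounds of the shared sequence. The shared windows were concentrated at the 3′ end of the transcript. Exon 12 had 70.8% and exon 15 had 81.6% of its windows in PMS2CL, whereas exons 1 to 8 had none in that copy. In any of the named copies, exon 2 had 31.4%, exon 4 had 8.74% and exon 1 had 3.77% of its windows. Exons 3 and 5 to 8 had none in any copy. A window is counted with the exon in which it begins.

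None of the 5 copies with enough counts passed the edgeR test, also at an unadjusted p under 0.05. PMS2CL (chromosome 7 from 6710128 to 6753862) had 689, 736 and 760 counts in si-NC and 603, 631 and 734 counts in si-METTL16 replicates 1, 2 and 3. Its level went from 42.5 ± 1.49 to 39.3 ± 2.26 CPM (SD, n = 3), and the groups overlapped (edgeR log2 fold change -0.11, 95% interval -0.30 to 0.08, adjusted p = 0.318). PMS2P1 had 313, 286 and 303 counts against 231, 233 and 295 counts (log2 fold change -0.21, edgeR adjusted p = 0.151). Its groups did not overlap in CPM, as was the case in one or the other direction for 50.9% of all tested genes. PMS2P3, PMS2P4 and PMS2P7 had between 10 and 71 counts a sample and did not pass the test. The other 6 copies had too few counts to be tested.

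Within each sample, the number of PMS2 counts per PMS2CL count was 1.95, 1.87 and 1.76 in si-NC and 1.18, 1.20 and 1.15 in si-METTL16 replicates 1, 2 and 3. This ratio does not depend on how the samples are scaled, and its groups were separate (two-sided exact permutation test, p = 0.1, the smallest that 20 splits of 6 samples allow). Per count of all 11 copies, PMS2 went from 1.16 ± 0.0227 to 0.757 ± 0.00786 (SD, n = 3, exact permutation p = 0.1). When the counts of PMS2 and its copies were added before the test, the sum still fell, by 0.45 on the log2 scale (edgeR adjusted p = 0.0016).

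**Figure D2:**
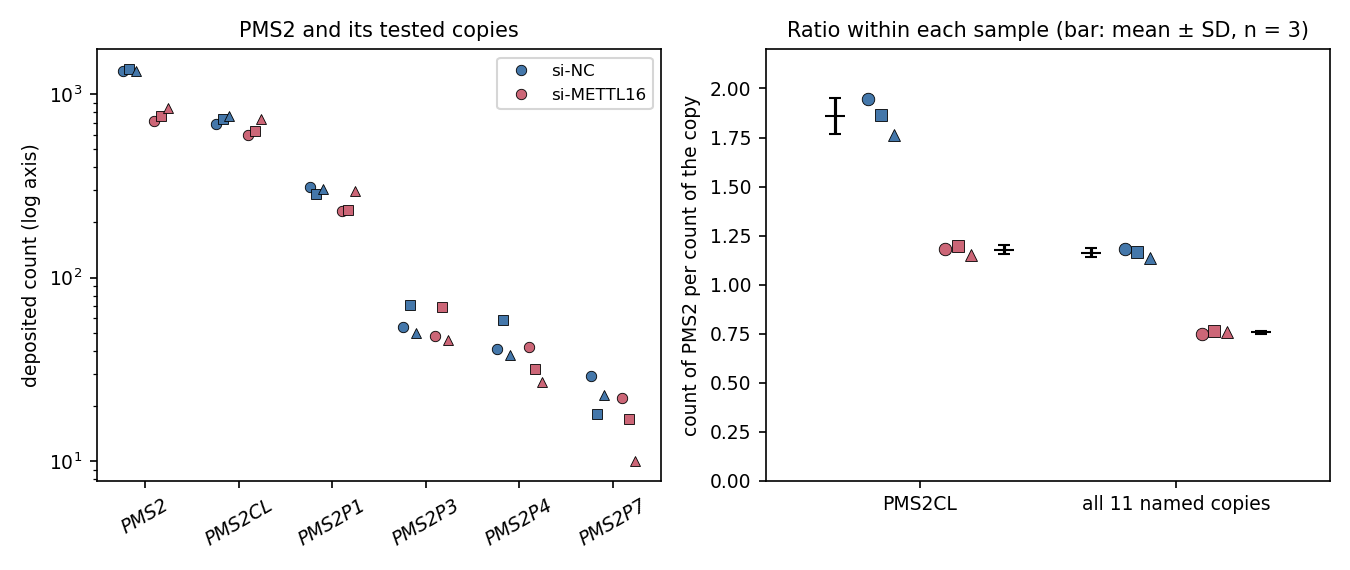
Left, deposited counts (log axis) of PMS2 and the 5 copies with enough counts to be tested, in si-NC (blue) and si-METTL16 (red) samples; circles, squares and triangles are replicates 1, 2 and 3. Right, counts of PMS2 per count of PMS2CL or of all 11 named copies in each sample, with mean ± SD (n = 3); the ratio to PMS2CL lies between 1.76 and 1.95 in controls and between 1.15 and 1.20 in silenced samples.

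MSH3 (ENSG00000113318, chromosome 5 from 80654648 to 80876460, plus strand) had 777, 784 and 842 counts in si-NC and 820, 800 and 950 counts in si-METTL16 replicates 1, 2 and 3. After scaling, all silenced samples lay slightly above all controls, at 49.97, 51.3 and 52.9 against 46.0, 46.2 and 48.0 CPM. The means were 46.7 ± 1.13 and 51.4 ± 1.44 CPM (SD, n = 3). Such a separation with the silenced samples higher was found in 25.7% of all tested genes. MSH3 was at 109.9% of control with a 95% interval from 98.3% to 123% (edgeR log2 fold change 0.14, SE 0.07, adjusted p = 0.163). A change larger than these bounds is outside the interval, and a smaller one could not be told from the spread between samples.

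MSH6 (ENSG00000116062, chromosome 2, plus strand) had 953, 1038 and 1050 counts in si-NC and 909, 1059 and 1294 counts in si-METTL16 replicates 1, 2 and 3. The first silenced sample was the lowest of all 6 and the third the highest, so that the groups overlapped. The level was 59.2 ± 2.47 CPM in control and 65.1 ± 8.64 CPM in silenced cells (SD, n = 3). MSH6 stood at 110.1% of control with a 95% interval from 92.5% to 131% (edgeR log2 fold change 0.14, SE 0.11, adjusted p = 0.350). The table gives the gene a span from 47695530 to 47810101, which begins far upstream of its MANE Select transcript (47783145 to 47806953) and overlaps FBXO11, an F-box protein gene on the opposite strand, over 20786 bases. FBXO11 had between 2722 and 3031 counts a sample and did not pass the test (edgeR log2 fold change 0.07, adjusted p = 0.322). Whether the counting used strand is not given in the sources used here, so reads in exon bases shared with a gene on the other strand cannot be assigned.

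The balance between both MutS subunits was nearly the same in both groups. On the deposited FPKM scale (counts divided by gene length and total count), MSH6 over MSH3 was 0.303 in the controls and 0.302 in the silenced samples as geometric means, with single samples between 0.266 and 0.326 (difference of log2 ratios -0.0063, two-sided exact permutation p = 0.9). With 3 samples per group this test cannot give a p under 0.1, so it cannot pass the threshold for a shift of any size. The sign of so small a difference turned when si-METTL16 replicate 1 or si-NC replicate 2 was left out, to 0.086 and 0.027. The ratio itself depended on the gene length used. The length implied by count and FPKM was 20356 bases for MSH6 against 4265 bases in its MANE Select transcript, and 4877 against 4443 bases for MSH3. Per kilobase of the MANE Select transcript, MSH6 exceeded MSH3, with a ratio of 1.32 in control and 1.31 in silenced cells.

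PMS1 (ENSG00000064933, chromosome 2 from 189784085 to 189877629, plus strand) had 925, 845 and 736 counts in si-NC and 894, 804 and 849 counts in si-METTL16 replicates 1, 2 and 3. The silenced samples lay inside the range of the controls on the CPM scale, at 54.5, 51.6 and 47.2 against 54.7, 49.8 and 42.0 CPM. PMS1 was at 105% of control with a 95% interval from 86.9% to 126% (edgeR log2 fold change 0.06, SE 0.11, adjusted p = 0.689). The direction turned to -0.035 without si-NC replicate 3, the lowest sample. The head-to-head partner of PMS1 is ORMDL1, a regulator of sphingolipid synthesis, whose start lies 286 bases away and whose exons share 96 bases with those of PMS1. ORMDL1 had 1019, 608 and 656 counts in si-NC and 1122, 695 and 811 counts in si-METTL16 replicates 1, 2 and 3, and did not pass the test (edgeR log2 fold change 0.24, adjusted p = 0.483).

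MLH3 (ENSG00000119684, chromosome 14 from 75013764 to 75051532, minus strand) was the lowest of the 5 genes on every scale. It had 141, 136 and 138 counts in si-NC and 537, 134 and 184 counts in si-METTL16 replicates 1, 2 and 3. On the CPM scale the controls were tight at 8.34, 8.01 and 7.87, and the silenced samples stood at 32.7, 8.59 and 10.2. All silenced samples were above all controls, as in 25.7% of all tested genes. The first silenced sample was 3.20-fold above the next highest sample of its group. The group mean was 17.2 ± 13.5 CPM against 8.08 ± 0.242 CPM in control (SD, n = 3).

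The edgeR test did not call MLH3 (log2 fold change 1.09, SE 0.49, 95% interval -0.06 to 2.24, adjusted p = 0.126). The Wald test of DESeq2, which called 35.8% of the genes it tested, put the same fold change past the threshold (adjusted p = 0.0329). Without si-METTL16 replicate 1 the edgeR log2 fold change was 0.22 (adjusted p = 0.310), and without any other single sample it lay between 1.07 and 1.41. The call by DESeq2 therefore concerns a value that this 1 sample sets. MLH3 in si-METTL16 replicate 1 stood at rank 31 of the 15089 genes by the size of the gap, on the log2 scale, between that sample and the next one in its group. The sample did not stand apart in the number of genes with a wide gap. It had 86 genes more than 1 log2 unit above and 199 genes more than 1 log2 unit below the other samples of its group, against 82 to 113 and 149 to 192 genes for the other 5 samples.

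**Figure D3:**
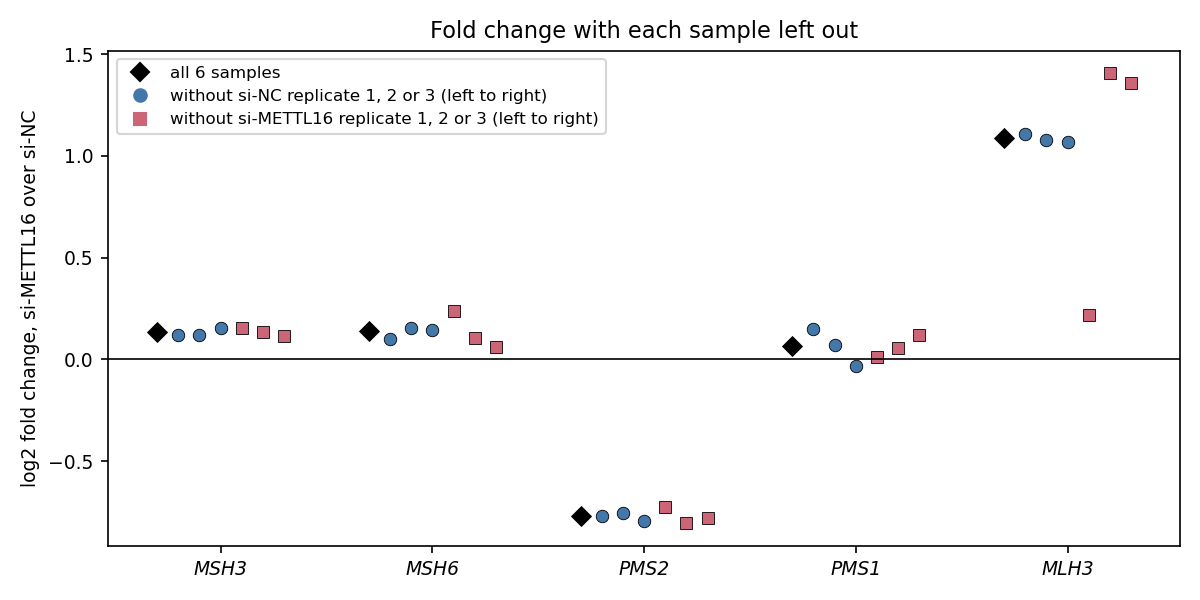
Log2 fold change of si-METTL16 over si-NC for each of the 5 genes (vertical axis) with all 6 samples (black) and with each si-NC (blue) or si-METTL16 (red) sample left out in turn. PMS2 stays between -0.80 and -0.73, PMS1 crosses 0, and MLH3 drops to 0.22 without si-METTL16 replicate 1.

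Because PMS2, PMS1 and MLH3 take alternative places in MutL complexes, their levels were also compared with each other within each sample. On the FPKM scale, PMS2 made up 65.4%, 67.9% and 70.0% of the sum of the 3 genes in si-NC and 46.5%, 54.9% and 55.8% in si-METTL16 replicates 1, 2 and 3. PMS2 remained the largest share in all samples on this scale. Its mean share went from 67.8% ± 2.32 to 52.4% ± 5.17 (SD, n = 3), a difference of -15.4 percentage points. The PMS1 share went from 29.9% ± 2.38 to 41.2% ± 0.950 and that of MLH3 from 2.35% ± 0.0852 to 6.42% ± 4.72. For each of the 3 shares the groups were separate, and the two-sided exact permutation test gave p = 0.1, the smallest the design allows, or 0.133 after Benjamini-Hochberg adjustment over the 3 shares and the ratio of the MutS subunits. The 3 shares sum to 100%, so they are not separate results, and the level of PMS1 itself did not pass the test. Without si-METTL16 replicate 1 the difference in the MLH3 share was 1.36 percentage points instead of 4.07.

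Which of PMS2 and PMS1 was the more abundant depended on the length scale. The length implied by the deposited values was 9830 bases for PMS1, 20760 bases for MLH3 and 7036 bases for PMS2, against 3156, 7820 and 5093 bases in the MANE Select transcripts, of which 2779 bases of PMS2 lie inside its deposited locus. Per kilobase of the whole MANE Select transcripts, PMS2 and PMS1 stood at 15.5 ± 0.446 and 15.5 ± 2.04 CPM in the controls and at 9.10 ± 0.514 and 16.2 ± 1.16 CPM after silencing (SD, n = 3). Per kilobase of the bases inside the deposited loci, PMS2 stood at 28.4 ± 0.817 CPM in the controls and at 16.7 ± 0.942 CPM after silencing, with PMS1 as before. On this last scale PMS2 was above PMS1 in all controls, and the genes overlapped in the silenced samples. The fall in the PMS2 share was much the same on each scale, from 48.6% to 33.3% by whole transcripts and from 63.3% to 47.7% by the bases inside the loci, or -15.2 and -15.6 percentage points. The scales divide the same counts by different fixed lengths, so their likeness is not separate evidence. When the copies were added to PMS2, the difference on the FPKM scale was -4.24 percentage points.

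**Figure D4:**
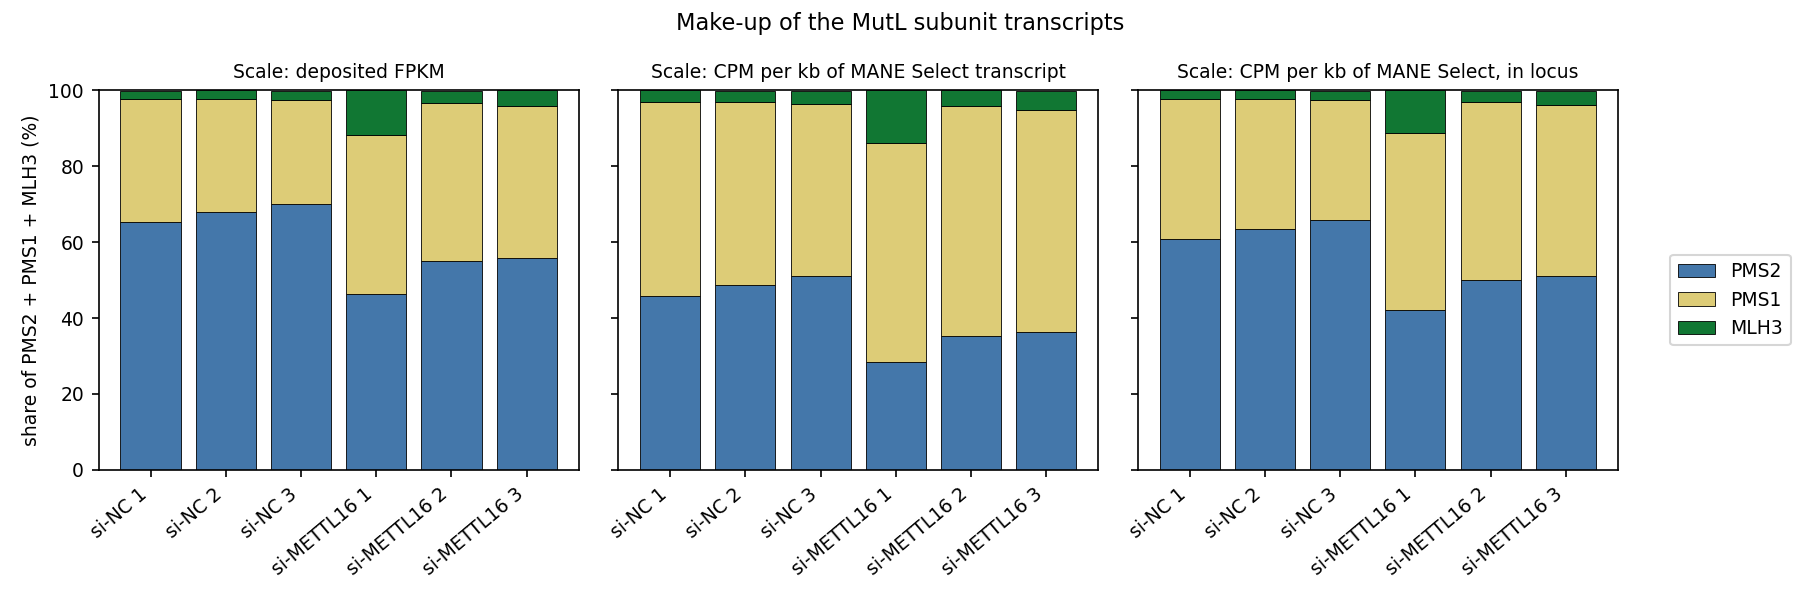
Share (%) of PMS2 (blue), PMS1 (yellow) and MLH3 (green) in the sum of the 3 genes in each sample, from the deposited FPKM (left), from CPM per kilobase of the whole MANE Select transcript (middle) and from CPM per kilobase of its bases inside the deposited locus (right). The PMS2 share is lower in the silenced samples on all 3 scales, and the MLH3 share reaches 11.9% on the left in si-METTL16 replicate 1.

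The order of the 5 genes in si-NC samples was PMS2 (11.3 ± 0.316 FPKM), MSH3 (9.64 ± 0.241), PMS1 (5.00 ± 0.654), MSH6 (2.92 ± 0.123) and MLH3 (0.391 ± 0.0114 FPKM) on the deposited scale, with no overlap between neighbours. Per kilobase of the MANE Select bases inside the deposited loci the order was PMS2 (28.4 ± 0.817 CPM per kilobase), PMS1 (15.5 ± 2.04), MSH6 (13.9 ± 0.579), MSH3 (11.4 ± 0.275) and MLH3 (1.03 ± 0.031). On that scale PMS1 and MSH6 overlapped, and the other neighbours were separate. In si-METTL16 samples PMS2, at 6.53 ± 0.394 FPKM, was below MSH3, at 10.4 ± 0.344 FPKM, although it was above MSH3 in all controls. This order too depended on the scale, since per kilobase of the bases inside the loci PMS2 stood at 16.7 ± 0.942 and MSH3 at 12.6 ± 0.352 CPM after silencing. MLH3 was the lowest gene on each scale, also in the sample in which it was raised.

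The genes that act after the MutS and MutL complexes mostly rose. Of 17 listed genes for excision, clamp loading and resynthesis, 16 could be tested, and 12 rose, 1 fell and 3 did not pass the test (edgeR, background 18.4% higher and 17.5% lower). Their median log2 fold change was 0.68, against -0.0045 over all tested genes. The 12 genes that rose include SSBP1, whose product acts in mitochondria and whose call was lost in most fits with 1 sample left out. The exonuclease EXO1, which removes the nicked strand, had 145, 249 and 197 counts in si-NC and 604, 706 and 735 counts in si-METTL16 replicates 1, 2 and 3 (log2 fold change 1.83, SE 0.19, edgeR adjusted p = 0.000578).
EXO1 promoter: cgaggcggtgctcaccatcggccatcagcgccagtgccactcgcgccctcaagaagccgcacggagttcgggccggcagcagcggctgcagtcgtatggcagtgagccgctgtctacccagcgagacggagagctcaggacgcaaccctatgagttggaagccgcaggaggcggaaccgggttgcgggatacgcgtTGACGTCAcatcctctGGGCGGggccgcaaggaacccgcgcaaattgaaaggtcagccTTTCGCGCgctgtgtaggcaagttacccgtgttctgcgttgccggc
The first of 2 RefSeq windows of EXO1 (GRCh38.p14, chr1:241847954-241848253, plus strand) is shown because EXO1 had the largest change of the list, with the same motifs in capitals. It held 1 GC box, 1 cAMP response core and 1 E2F-like match. A second RefSeq window of EXO1 (chr1:241848481-241848780) held 1 E2F-like match and none of the other 3 motifs.

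All 5 subunits of the RFC clamp loader rose, with log2 fold changes of 1.17 for RFC3, 1.01 for RFC5, 0.88 for RFC2, 0.84 for RFC4 and 0.34 for RFC1. PCNA, the clamp itself, had 1867, 1917 and 2203 counts in si-NC and 2861, 3759 and 3607 counts in si-METTL16 replicates 1, 2 and 3 (log2 fold change 0.82, SE 0.12, edgeR adjusted p = 0.00224). Of the single-strand binding complex, RPA1 and RPA2 rose by 0.86 and 0.52 on the log2 scale, and RPA3 was at -0.042 (edgeR adjusted p = 0.725). Of DNA polymerase delta, the catalytic subunit POLD1 and the subunit POLD3 rose by 0.74 and 0.62, and POLD2 was at 0.11 (edgeR adjusted p = 0.337). POLD4, its smallest subunit, fell with a log2 fold change of -0.81 (edgeR adjusted p = 0.024), but not past the threshold without si-METTL16 replicate 1 or 2 (adjusted p = 0.0633 and 0.0776). LIG1, which seals the repaired strand, was at 0.29 (edgeR adjusted p = 0.132). SSBP1, whose product binds single-stranded DNA in mitochondria, rose by 0.22 (edgeR adjusted p = 0.0268), a call that was lost when any sample but si-NC replicate 2 was left out (adjusted p between 0.0518 and 0.0991).

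These downstream genes also serve DNA replication, and replication genes moved with them. Of 18 genes active in S phase, such as MCM2 and CDC6, 16 rose and 2 did not pass the test, with a median log2 fold change of 1.08. Their summed level, scaled by total count, lay between 616 and 814 CPM in the controls and between 1449 and 1644 CPM in the silenced samples. The part of this in the rise of the repair genes was not tested.

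**Figure D5:**
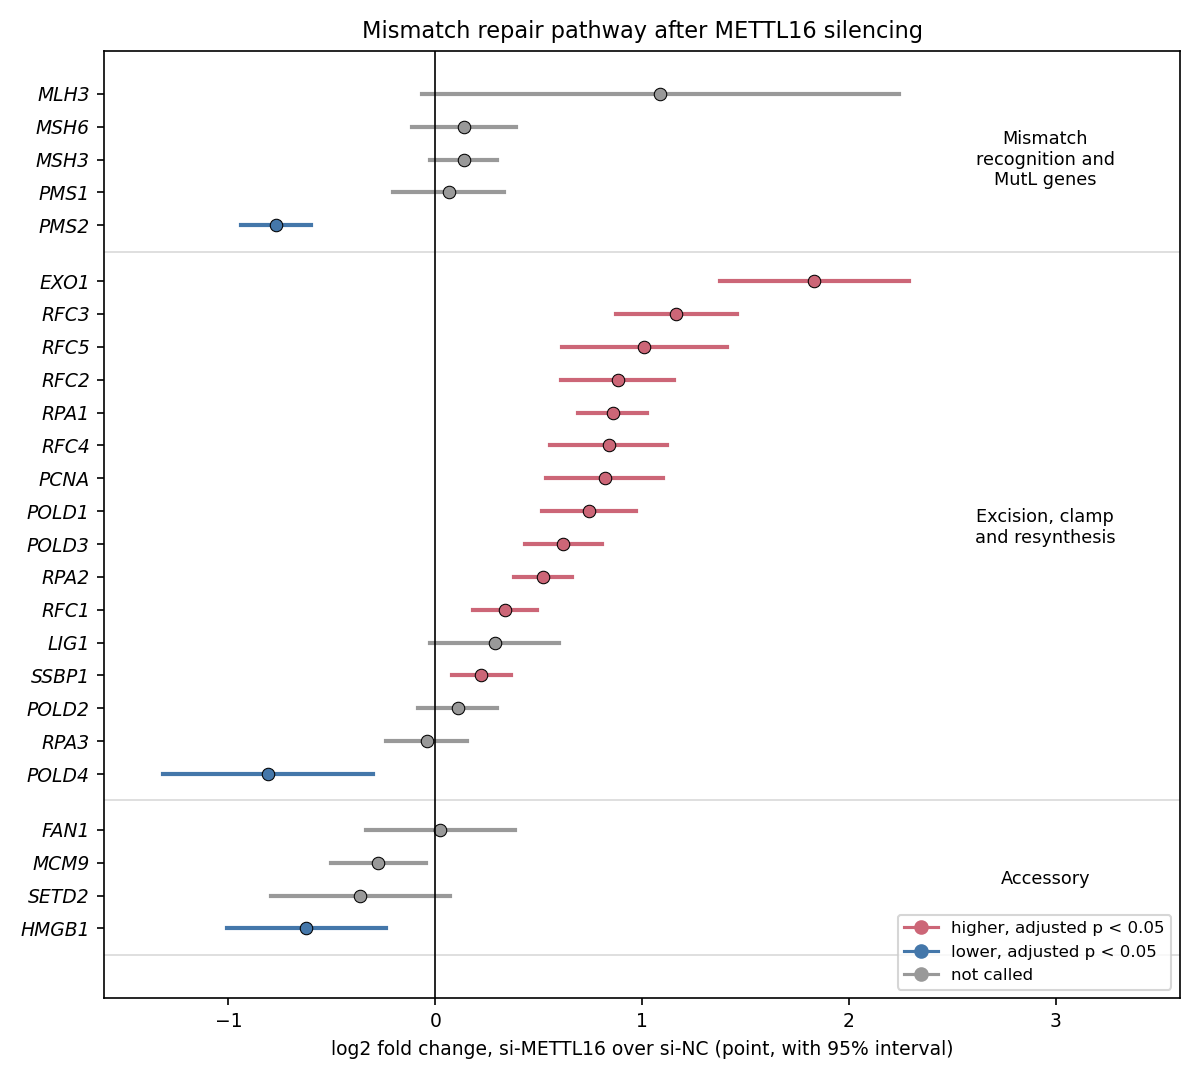
Log2 fold change of si-METTL16 over si-NC (points) with 95% intervals (lines) for the 5 mismatch recognition and MutL genes, the 16 tested excision, clamp and resynthesis genes and 4 accessory genes. Red marks genes higher and blue marks genes lower at an edgeR adjusted p under 0.05, and grey marks genes not called; PMS2 is the only called gene of the upper block, whereas 12 genes of the middle block are higher.

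Of 4 accessory genes, HMGB1, a chromatin protein that can assist excision, fell with counts of 5253, 4205 and 5746 in si-NC and 2597, 2825 and 4242 in si-METTL16 replicates 1, 2 and 3 (log2 fold change -0.62, SE 0.16, edgeR adjusted p = 0.0226). Its call was lost without si-NC replicate 1 or 3 or si-METTL16 replicate 1 or 2 (adjusted p between 0.0591 and 0.0744). The helicase MCM9 was at -0.28 (edgeR adjusted p = 0.0641), the histone methyltransferase SETD2 at -0.36 (adjusted p = 0.167) and the nuclease FAN1 at 0.02 (adjusted p = 0.922). MCM9 passed the threshold without si-METTL16 replicate 2 (-0.35, adjusted p = 0.044) and when scaled by total count (-0.30, adjusted p = 0.04997), and SETD2 was at -0.16 without si-METTL16 replicate 1 (adjusted p = 0.163). Of the meiotic MutS homologues, MSH5 had between 56 and 100 counts a sample and did not pass the test (edgeR log2 fold change 0.07, adjusted p = 0.849). MSH4 had 3 and 4 counts in si-METTL16 replicates 1 and 3 and 0 in the other 4 samples, too few to be tested.

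Genes whose log2 CPM followed each member most closely over the 6 samples were looked up as a description. PMS2 was followed by NSA2, KIAA0753 and the pseudogene RPL22P2, each with a Pearson r of 0.999, and NSA2 and KIAA0753 were themselves lower in silenced cells (edgeR log2 fold change -0.80 and -0.57). MSH3 was followed by MYO9B, SDHB and MRRF (r between 0.99 and 0.994), MSH6 by KIAA2013, C12orf57 and RPS2 (0.971 to 0.985) and PMS1 by LMAN2, TTC1 and TESK1 (0.966 to 0.986). MLH3 was followed by QRICH1 and CNTNAP3 (0.989 and 0.975), genes that share its high value in si-METTL16 replicate 1. The 6 samples fall into 2 groups, so a difference between the groups that a pair of genes shares raises r, and the highest values were taken from a search over many genes.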

How the data were processed

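RNA-seq data of 6 PANC-1 samples were used, grouped and numbered by their titles. For each gene the authors deposited whole-number counts, and FPKM values in which each count is scaled by a fixed length of the gene and the total of its sample. The submitters' processing notes name HISAT2 2.0.4, StringTie 1.3.0 and GRCh38 (hg38); the counting program, annotation release and use of strand are not given in the sources used here. The libraries were prepared with a SMARTER mRNA-seq kit.

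The deposited counts were filtered with filterByExpr (minimum count 10, minimum total count 15) and then scaled by TMM. They were compared in R 4.3.3 by the edgeR quasi-likelihood test (edgeR 4.0.16). P-values were adjusted by Benjamini-Hochberg over all 15089 genes, with a threshold of 0.05. A test on counts was used because counts were deposited, whereas the methods name limma. Standard errors and 95% intervals were derived from the F statistics. The common biological coefficient of variation was 16.5%, and with 3 samples per group the precision of a gene is set mainly by the spread between samples. Shares and ratios were compared by two-sided exact permutation tests over 20 splits.

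The alternatives were DESeq2 1.42.0, limma 3.58.1 on voom values and on log2(FPKM + 1) and log2(FPKM + 0.1) where the mean FPKM reached 1, other scalings and filters, each sample left out, the replicate number as a block, a threshold of 0.01, and PMS2 summed with its copies. CPM per kilobase of the MANE Select transcript, whole or inside the deposited locus, was added after seeing the data.

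The members and gene lists were chosen with earlier results of these data known. Named were the members, METTL16, all genes of the pathway lists, overlapping or head-to-head neighbours (starts within 1000 bases), copies whose symbol begins with PMS2, the 3 genes most correlated with each member among those with a symbol and a mean CPM at or above the median, and up to 3 of the largest called changes of each other list. MCM2 and CDC6 are named as examples outside this rule, and some genes that it selects are not reported here. The table held 27 symbols turned into dates, which were restored from the gene identifiers. Exons came from GENCODE v44 and promoter windows from RefSeq (GRCh38.p14), with windows found for the 5 members. Scripts were tested on simulated data. No pair of samples differed by so little as to be a repeated deposit, since the chi-square of every pair within a group was at least 15.9 per degree of freedom.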

Additional observations from a re-analysis of the deposited data

How the results depend on the processing

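PMS2 kept its direction and its call in all 17 alternatives, between -0.80 and -0.45 on the log2 scale, the last with its copies summed. MSH3, MSH6 and PMS1 were not called in any of theirs. A count of 1 member called higher was given by the Wald test of DESeq2, for MLH3 at 1.09 (adjusted p = 0.0329), against 0 in the other alternatives; in edgeR, 0 members were higher at an unadjusted p under 0.05. MLH3 was not tested by limma on FPKM, because its mean FPKM is under 1. With each sample left out in turn, PMS1 lay between -0.035 and 0.15, the difference of log2 ratios of MSH6 to MSH3 between -0.063 and 0.086, RPA3 between -0.084 and 0.0058, FAN1 between -0.080 and 0.19, and the number of excision, clamp and resynthesis genes called lower between 0 and 1. That number was also 0 at an adjusted p under 0.01. A fit that leaves 2 samples in a group rests on the spread of the remaining samples.

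Both groups carry the replicate numbers 1, 2 and 3, but the deviations of same-numbered samples correlated at only 0.0253, 0.0371 and 0.0298, so the numbers were not taken as pairs, although each sample correlated best with its own number. With the number as a block, PMS2 was at -0.77 (edgeR adjusted p = 0.00309) and MLH3 at 0.84 (adjusted p = 0.163), SSBP1 lost its call (adjusted p = 0.0556), and no other call of the members or of the excision, clamp and resynthesis genes changed. Sign-flip exact permutation tests within numbers cannot go below p = 0.25.

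Depth limited MSH4 and 6 copies of PMS2, and reads shared between PMS2 and PMS2CL or between overlapping genes cannot be assigned.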

Other observations

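Genes of other repair pathways were compared in the same edgeR test as the mismatch repair genes, with backgrounds of 18.4% higher and 17.5% lower. Of 21 base excision genes, 4 rose, 3 fell and 14 did not pass, with a median log2 fold change of 0.13. The glycosylases NEIL3 and UNG, which remove damaged bases and uracil, had log2 fold changes of 1.74 and 1.18 (adjusted p = 0.00125 and 0.000163). NEIL1, a related glycosylase, had 24, 33 and 23 counts in si-NC and 12, 3 and 10 counts in si-METTL16 replicates 1, 2 and 3 (log2 fold change -1.63, adjusted p = 0.0263).

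Of 23 nucleotide excision genes, 7 rose, 5 fell and 11 did not pass, with a median of 0.03. XPA, which checks the damaged strand, went from 292, 329 and 364 counts in si-NC to 153, 127 and 169 counts in si-METTL16 replicates 1, 2 and 3 (log2 fold change -1.09, edgeR adjusted p = 0.000685). CETN2, a partner of the damage sensor XPC, was at -0.68 (adjusted p = 0.00106). Of 8 end joining genes, XRCC4 and PRKDC rose by 1.03 and 0.54 on the log2 scale (edgeR adjusted p = 0.000933 and 0.000828) and the other 6 did not pass. In the S phase list, the largest called changes were those of RRM2, E2F1 and GINS2, at 2.71, 1.67 and 1.57.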
